A study of Mus musculus with 10 samples.

Results

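The 10 genes followed here in the liver of germ-free (GF) mice carry or restrain cyclic AMP (cAMP) signalling. They were taken as a list of gene symbols chosen with earlier results of these data known. The symbols were matched to the Ensembl identifiers of the count table through GENCODE. All 10 were found among the 12148 genes of the table, and all 10 were among the 12147 genes tested. Liver RNA was sequenced from 10 wild-type C57BL/6 GF mice, 5 given microbiota-derived extracellular vesicles in PBS by mouth (GF+MEV) and 5 given PBS by mouth (GF+PBS). The vesicles came from the gut contents of conventionally colonised mice, and dosing was repeated over weeks. Both groups lacked a microbiota of their own, carried no transgene, and gave 1 library per mouse from whole liver. The age and sex of the GF mice and the hour at which their livers were taken are not given in the sources used here. The comparison asks how the liver's transcripts differ between GF mice given vesicles and GF mice given the carrier alone.

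Glucagon and adrenaline raise cAMP in hepatocytes through receptors coupled to adenylyl cyclase. cAMP binds the regulatory subunits of protein kinase A (PKA), which frees the catalytic subunits to phosphorylate the transcription factor CREB, and its coactivators of the CRTC family move to the nucleus. In liver this pathway is best known for switching on gluconeogenesis during fasting. Several of its targets feed back on it, among them kinases that return CRTC to the cytoplasm, repressor forms of CREM and phosphodiesterases that break cAMP down.

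Library totals ran from 15746119 to 20523649 counts in GF+MEV livers and from 16140770 to 19733387 in GF+PBS livers. Levels are given as CPM, counts scaled to a common library total by TMM, and a gene was said to pass the test where its edgeR quasi-likelihood p, adjusted by Benjamini-Hochberg over all tested genes, was under 0.05. The hepatocyte markers were abundant in all 10 libraries, with a summed level of 79337 to 99251 CPM in GF+MEV and 84353 to 100130 CPM in GF+PBS. Within GF+PBS, livers 1 and 3 resembled each other, as did livers 4 and 5. Each pair differed by a root mean square of 0.496 to 0.529 on the log2 scale over 300 variable genes, against 0.680 to 0.850 for the 8 other GF+PBS pairs, so the 4 genes that passed and the ratios between members are also given against subsets of these livers. GF+MEV liver 2 stood apart in its TMM factor of 0.890 and in a list of mitochondrial, ribosomal-RNA-related and haemoglobin genes kept as signs of RNA quality and carry-over, which summed to 126630 CPM there and to 18493 to 24983 CPM in the 9 others.

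Of the 10 genes, 3 rose in GF+MEV livers and 1 fell. *Sik1*, *Ppargc1a* and *Nr4a1* were 2.31-fold to 3.75-fold higher. *Pde4b*, whose product destroys cAMP, was lower at 0.634 times its GF+PBS level. The remaining 6, *Crem*, *Creb1*, *Creb3l3*, *Crtc2*, *Pde4d* and *Prkar1a*, did not pass the test. Over all tested genes 4.12% passed as higher and 3.52% as lower, 7.64% in all. The 4 genes that passed were also those whose groups did not overlap, which held for 3.94% of tested genes in the higher direction and 3.45% in the lower, 7.39% in all. Among the 10 genes the median log2 fold change was 0.14, against -0.0037 over all tested genes, and 8 of the 10 were above 0. In whole tissue, fewer cells of a type and less RNA per cell cannot be told apart.

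**Figure D1:**
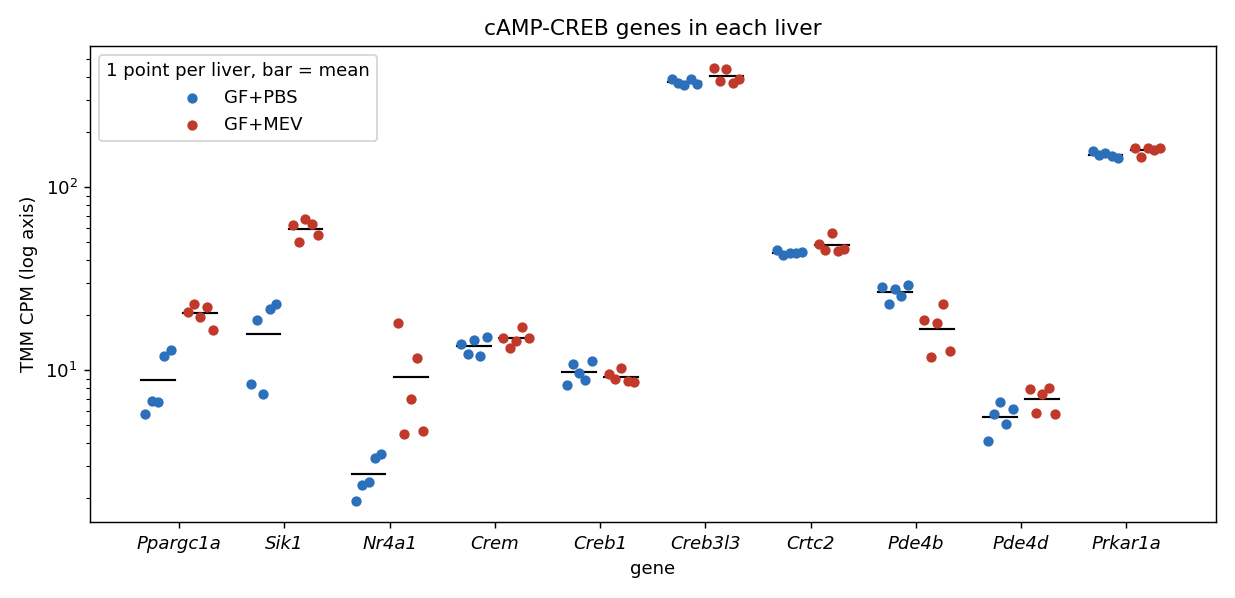
TMM-scaled CPM of each of the 10 genes in every liver, on a log axis, with a point per liver and a bar at the group mean. For Sik1, Ppargc1a, Nr4a1 and Pde4b the GF+MEV and GF+PBS points do not overlap, while they overlap for the other 6 genes.

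*Sik1* encodes salt-inducible kinase 1, which phosphorylates CRTC2 and so brakes the pathway that induces it. It lies on the minus strand of chromosome 17 of GRCm38 (31844250 to 31855804, ENSMUSG00000024042). In GF+MEV livers 1 to 5 its level was 62.1, 50.5, 67.3, 62.8 and 54.5 CPM. In GF+PBS livers 1 to 5 it was 8.38, 18.9, 7.38, 21.7 and 22.9 CPM. The groups did not overlap, and livers 1 and 3 of GF+PBS were the lowest of all. The means were 59.5 ± 6.79 CPM and 15.9 ± 7.43 CPM (SD, n = 5), from 732 to 1395 counts per library in GF+MEV and 124 to 429 in GF+PBS. The log2 fold change was 1.91 (SE 0.251, 95% interval 1.37 to 2.44, edgeR adjusted p = 0.000208). With GF+PBS livers 2, 4 and 5 as the only controls it was 1.49, and with livers 1, 2 and 3 it was 2.36. *Sik1* passed the test in both.

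*Ppargc1a* encodes PGC-1α, a coactivator that drives gluconeogenic and mitochondrial genes with partners such as HNF4A and FOXO1. It lies on the minus strand of chromosome 5 (51454250 to 51567726, ENSMUSG00000029167). Its level was 20.8, 23.1, 19.6, 22.1 and 16.5 CPM in GF+MEV livers 1 to 5. In GF+PBS livers 1 to 5 it was 5.77, 6.84, 6.72, 11.9 and 12.97 CPM. The groups did not overlap, and livers 4 and 5 were the highest of GF+PBS. Group means of 20.4 ± 2.56 and 8.85 ± 3.33 CPM (SD, n = 5) gave a log2 fold change of 1.21 (SE 0.196, 95% interval 0.79 to 1.62, edgeR adjusted p = 0.00129). Against GF+PBS livers 2, 4 and 5 the log2 fold change was 0.95, and against livers 1, 2 and 3 it was 1.66, past the threshold in both. Skeletal muscle also expresses *Ppargc1a*. None of the 6 muscle markers tested, of 11 listed, passed the test (2 had an unadjusted edgeR p under 0.05, both lower, and DESeq2 and limma-voom called 0), and their summed level was 271 to 375 CPM in GF+MEV and 226 to 782 CPM in GF+PBS. Their part in the *Ppargc1a* result was not tested.

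*Nr4a1* encodes Nur77, an orphan nuclear receptor and immediate-early gene whose product binds promoters of gluconeogenic genes. Its gene is on the plus strand of chromosome 15 (101254269 to 101274795, ENSMUSG00000023034). GF+MEV livers 1 to 5 held 18.2, 4.48, 6.95, 11.7 and 4.69 CPM. GF+PBS livers 1 to 5 held 1.94, 2.35, 2.44, 3.34 and 3.48 CPM. All GF+MEV livers were above all GF+PBS livers, but they were spread over a wide range, with liver 1 the highest and livers 2 and 5 close to the controls. The means were 9.22 ± 5.83 and 2.71 ± 0.666 CPM (SD, n = 5), from 65 to 299 counts per library in GF+MEV and 35 to 66 in GF+PBS. The log2 fold change of 1.77 had an SE of 0.356 and a 95% interval of 1.004 to 2.53 (edgeR adjusted p = 0.00659). Without GF+MEV liver 1 it was 1.37 (edgeR adjusted p = 0.0096). It was 1.59 against GF+PBS livers 2, 4 and 5 (edgeR adjusted p = 0.0391), 2.04 against livers 1, 2 and 3 (edgeR adjusted p = 0.0196) and 1.79 with the alike livers summed (edgeR adjusted p = 0.0350). Its interval was the widest of the 3.

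The DNA before a gene's start bears on how CREB reaches it, since CREB binds the cAMP response element TGACGTCA and, less tightly, its core TGACG. Promoter windows from RefSeq (GRCm38.p6), reaching from 250 bases before to 50 bases after an annotated start, were matched by symbol. This gave 16 windows for 7 genes and left *Sik1* and *Crtc2* unmatched. Windows of the chromosome that holds *Crem* were left out of the search, so *Crem* was not examined. Both motifs were searched on both strands, and each full element also contains the core on either strand. The core stood in 20.8% of the 32851 mouse windows searched and the full element in 1.79%. Of the 16 windows of these genes, 7 held a core and 2, both of *Prkar1a* and overlapping, the full element. The 2 overlapping windows hold the same letters, so their matches were counted in both. Counted by gene, 5 of 7 had a core in at least 1 of their windows. That count cannot be set against the 20.8%, which is a share of windows, because some genes have several windows. No share by gene was taken over all genes. *Creb1* and *Pde4d* had no match in these windows, and *Creb3l3* had a core 239 bases upstream in its first window. The 4 windows below are of *Ppargc1a*, *Nr4a1* and *Pde4b*, which passed the test, and of *Prkar1a*, which holds the full element and did not pass. For *Pde4b* and *Prkar1a* a window with a match was chosen among several. They are written on the gene's own strand from 5′ to 3′, with TGACGTCA, TGACG or its reverse complement CGTCA in capitals.
Ppargc1a, chr5:51567676-51567975, minus strand: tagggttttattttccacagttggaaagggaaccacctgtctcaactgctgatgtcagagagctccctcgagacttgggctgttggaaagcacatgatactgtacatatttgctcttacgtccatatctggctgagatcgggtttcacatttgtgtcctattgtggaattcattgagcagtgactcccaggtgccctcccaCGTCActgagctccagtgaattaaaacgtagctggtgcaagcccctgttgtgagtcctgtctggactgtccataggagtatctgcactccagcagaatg
Nr4a1, chr15:101266596-101266895, plus strand: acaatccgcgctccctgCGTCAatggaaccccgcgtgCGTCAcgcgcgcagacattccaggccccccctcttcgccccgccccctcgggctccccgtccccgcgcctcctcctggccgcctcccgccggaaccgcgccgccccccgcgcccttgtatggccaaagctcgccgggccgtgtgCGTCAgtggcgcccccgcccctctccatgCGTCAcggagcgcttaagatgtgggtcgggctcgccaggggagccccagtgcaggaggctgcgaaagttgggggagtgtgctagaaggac
Pde4b, chr4:102421305-102421604, plus strand: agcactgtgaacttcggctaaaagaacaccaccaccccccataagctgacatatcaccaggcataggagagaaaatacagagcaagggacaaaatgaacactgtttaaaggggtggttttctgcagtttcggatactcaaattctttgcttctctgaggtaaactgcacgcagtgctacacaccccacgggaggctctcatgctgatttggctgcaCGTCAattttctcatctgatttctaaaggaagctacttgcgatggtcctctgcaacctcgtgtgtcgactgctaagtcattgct
Prkar1a, chr11:109650699-109650998, plus strand: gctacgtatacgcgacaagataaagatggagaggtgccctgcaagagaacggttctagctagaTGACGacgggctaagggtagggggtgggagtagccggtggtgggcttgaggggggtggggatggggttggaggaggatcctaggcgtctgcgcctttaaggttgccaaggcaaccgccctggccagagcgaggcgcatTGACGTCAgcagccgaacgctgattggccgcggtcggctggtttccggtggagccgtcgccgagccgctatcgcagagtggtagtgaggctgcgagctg
The *Ppargc1a* window held a single core, 49 bases upstream of the start. That of *Nr4a1* held 4, at 233, 213, 69 and 40 bases upstream, the most among the windows shown. *Pde4b*, which fell, also held a core, 34 bases upstream, in 1 of its 4 windows. In *Prkar1a* the full element lay 49 bases upstream and a further core 187 bases upstream, in the window shown. A neighbouring window, which overlaps it, held the same element 39 bases downstream of its start, and of the 6 windows of *Prkar1a* 3 held a core and 2 the full element. A match is a string of letters and does not show that CREB was bound in these livers.

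The transcription factors and the coactivator that read the cAMP signal did not pass the test. *Creb1*, which encodes CREB itself, is on chromosome 1 (64532645 to 64604548, ENSMUSG00000025958). Its level was 9.23 ± 0.683 CPM in GF+MEV and 9.78 ± 1.23 CPM in GF+PBS (SD, n = 5), with livers from 8.61 to 10.3 and from 8.33 to 11.2 CPM. The log2 difference was -0.08 (95% interval -0.30 to 0.14, edgeR adjusted p = 0.716). *Crtc2*, on chromosome 3 (90254163 to 90264125, ENSMUSG00000027936), encodes the CREB coactivator that SIK1 phosphorylates. GF+MEV livers 1 to 5 held 49.3, 45.4, 56.4, 44.9 and 46.3 CPM of it. GF+PBS livers 1 to 5 held 45.4, 42.7, 43.5, 43.6 and 44.1 CPM. Of GF+MEV, liver 4 lay within the narrow GF+PBS range and the other 4 above it, liver 2 by less than the rounding shown, with liver 3 the highest. The log2 difference was 0.15 (95% interval -0.0008 to 0.29, edgeR adjusted p = 0.239).

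*Crem* (ENSMUSG00000063889) encodes activating forms of the cAMP response element modulator and, from an internal promoter, the repressor ICER, which cAMP induces. Counts per gene do not separate these products. The levels were 15.1, 13.3, 14.4, 17.3 and 14.97 CPM in GF+MEV livers 1 to 5. They were 13.99, 12.3, 14.7, 12.03 and 15.2 CPM in GF+PBS livers 1 to 5. The ranges overlapped over most of their length, and the log2 difference was 0.14 (95% interval -0.06 to 0.34, edgeR adjusted p = 0.435). Of the merged *Crem* exons, 8.01% share their bases with Gm6225 on the other strand. The library kit named in the labels does not mark strand, so reads from the pair cannot be told apart there. *Creb3l3* encodes CREBH, a membrane-bound liver factor released on fasting or stress in the endoplasmic reticulum that controls lipid genes. On chromosome 10 (81084324 to 81098874, ENSMUSG00000035041), it was at 407 ± 37.8 CPM in GF+MEV and 376 ± 13.3 CPM in GF+PBS (SD, n = 5). GF+MEV livers 1 and 3, at 450.4 and 444 CPM, were above all others, and the remaining 3, at 369 to 392.4 CPM, lay close to the GF+PBS range of 361 to 390.5 CPM. The log2 difference was 0.12 (95% interval -0.03 to 0.26, edgeR adjusted p = 0.342).

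*Pde4b* and *Pde4d* encode cAMP-specific phosphodiesterases of the same subfamily, which end the signal by hydrolysing cAMP, and their ratio within a liver differed between the groups. *Pde4b* is on chromosome 4 (102087543 to 102607259, ENSMUSG00000028525). Its level was 18.7, 11.9, 18.2, 23.0 and 12.7 CPM in GF+MEV livers 1 to 5. It was 28.5, 23.1, 27.9, 25.5 and 29.1 CPM in GF+PBS livers 1 to 5. The groups did not overlap, but the highest GF+MEV liver, number 4, was only just under the lowest GF+PBS liver, number 2. The means of 16.9 ± 4.62 and 26.8 ± 2.49 CPM (SD, n = 5) gave a log2 fold change of -0.66 (SE 0.149, 95% interval -0.98 to -0.34, edgeR adjusted p = 0.0139). The call was lost against GF+PBS livers 2, 4 and 5 (log2 fold change -0.61, edgeR adjusted p = 0.0574), against livers 1, 2 and 3 (-0.64, edgeR adjusted p = 0.0590) and where the alike livers were summed (-0.62, edgeR adjusted p = 0.0714).

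Leukocytes and endothelial cells express *Pde4b* too. Of 8 B and T lymphocyte markers 4 could be tested, and *Cd79a* (log2 fold change -0.87) and *Cd79b* (-0.76), signalling chains of the B cell receptor, fell. The list summed to 8.67 to 16.2 CPM in GF+MEV and 14.96 to 22.4 CPM in GF+PBS. Of 5 endothelial markers the sinusoidal lectin *Clec4g* fell (-0.48), with summed levels of 95.1 to 152 and 121 to 158 CPM. None of the 7 myeloid markers tested passed (0 at an unadjusted edgeR p under 0.05, and 0 by DESeq2 or limma-voom), and these summed to 163 to 305 and 195 to 263 CPM. Of 3 cholangiocyte markers tested *Krt19*, a keratin of bile duct cells, rose from 0.560 ± 0.190 to 8.20 ± 5.80 CPM (SD, n = 5; log2 fold change 3.87, edgeR adjusted p = 0.000631). *Sox9* differed in the other direction (-0.98, edgeR adjusted p = 0.103) and *Spp1* by 0.52 (edgeR adjusted p = 0.133), neither past the threshold. The list summed to 28.1 to 79.3 CPM in GF+MEV, with liver 2 the highest, and 23.2 to 29.7 CPM in GF+PBS. No tested marker was at 0 in any liver. The part of these cells in the results of the 4 genes that passed was not tested.

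*Pde4d*, on chromosome 13 (108449948 to 109953461, ENSMUSG00000021699), was at 7.93, 5.86, 7.43, 7.97 and 5.78 CPM in GF+MEV livers 1 to 5. In GF+PBS livers 1 to 5 it was at 4.11, 5.77, 6.72, 5.10 and 6.19 CPM. GF+MEV livers 1, 3 and 4 were above all GF+PBS livers, and livers 2 and 5 lay within their range. Its log2 difference was 0.33 (95% interval 0.02 to 0.65), with an unadjusted edgeR p of 0.0377 and an adjusted p of 0.201. *Prkar1a*, on chromosome 11 (109649405 to 109669656, ENSMUSG00000020612), encodes the type I alpha regulatory subunit, which holds PKA inactive until cAMP binds. The levels were 165, 146, 164, 159 and 164 CPM in GF+MEV livers 1 to 5 and 159, 150.4, 153, 147 and 145 CPM in GF+PBS livers 1 to 5. GF+MEV liver 2 was below the other 4 of its group and lay within the GF+PBS range. The log2 difference was 0.08 (95% interval -0.03 to 0.19, edgeR adjusted p = 0.427), and 0.11 without that liver (edgeR adjusted p = 0.266).

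**Figure D2:**
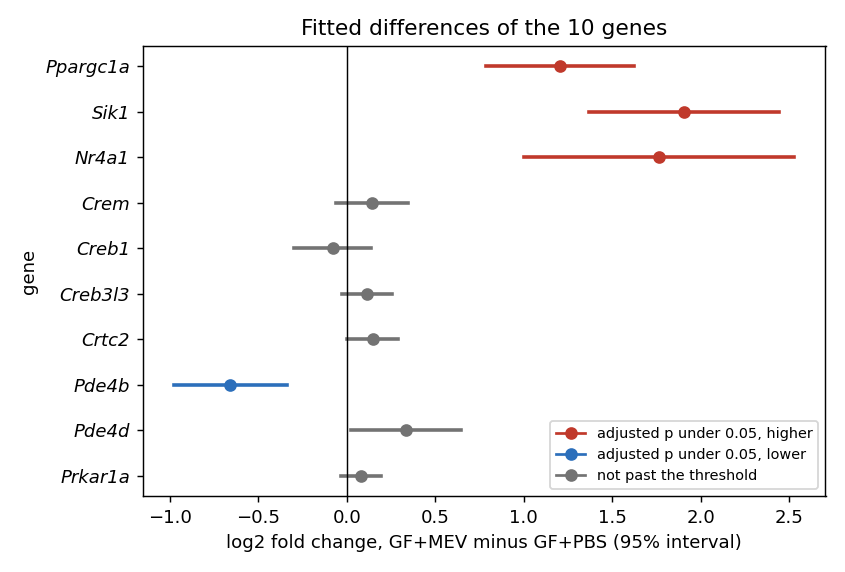
Log2 fold change of GF+MEV over GF+PBS for the 10 genes, with the 95% interval from the edgeR fit (n = 5 livers per group). The intervals of Sik1, Ppargc1a and Nr4a1 lie above 0 and that of Pde4b below 0, while those of Crem, Creb1, Creb3l3, Crtc2 and Prkar1a cross 0 and that of Pde4d, which did not pass after adjustment, starts at 0.02.

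Within-liver ratios compared members that oppose each other or share a role. Each is a difference of log2 CPM in the same liver, tested by an exact two-sided permutation of 5 mice against 5, whose smallest possible p is 0.00794, and adjusted over the 3 ratios. Their absolute size depends on gene length, but their difference between groups does not. The ratio of *Sik1* to its substrate's gene *Crtc2* was 0.29 ± 0.12 in GF+MEV and -1.58 ± 0.77 in GF+PBS (SD, n = 5). It rose by 1.87 (exact permutation p = 0.00794, adjusted p = 0.0119). The 5 GF+MEV livers lay between 0.15 and 0.48, while GF+PBS fell into livers 1 and 3, at -2.37 and -2.48, and livers 2, 4 and 5, at -1.16 to -0.93. Against livers 2, 4 and 5 alone the rise was 1.31, and against livers 1, 2 and 3 it was 2.29. Both were at the smallest p that 5 mice against 3 allow (exact permutation p = 0.0357), with subsets chosen after the values were seen. *Sik1* alone already separated the groups and *Crtc2* differed little, so this ratio is not support independent of the *Sik1* result. The ratio of *Pde4b* to *Pde4d* was 1.19 ± 0.19 in GF+MEV and 2.18 ± 0.29 in GF+PBS (SD, n = 5), a difference of -0.99 (exact permutation p = 0.00794, adjusted p = 0.0119). It ran from 0.96 to 1.47 and from 1.91 to 2.66, without overlap, and the difference was -0.90 and -0.99 against the same subsets (exact permutation p = 0.0357 for each). *Pde4b* alone also separated the groups, so this ratio too is not independent of the result of that gene. For *Crem* over *Creb1* the values of 0.67 ± 0.19 and 0.46 ± 0.20 (SD, n = 5) differed by 0.21 (exact permutation p = 0.127, adjusted p = 0.127). Without GF+PBS liver 1 that difference was 0.27 (exact permutation p = 0.0476, unadjusted), and against livers 2, 4 and 5 it was 0.33 (exact permutation p = 0.0357, unadjusted).

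**Figure D3:**
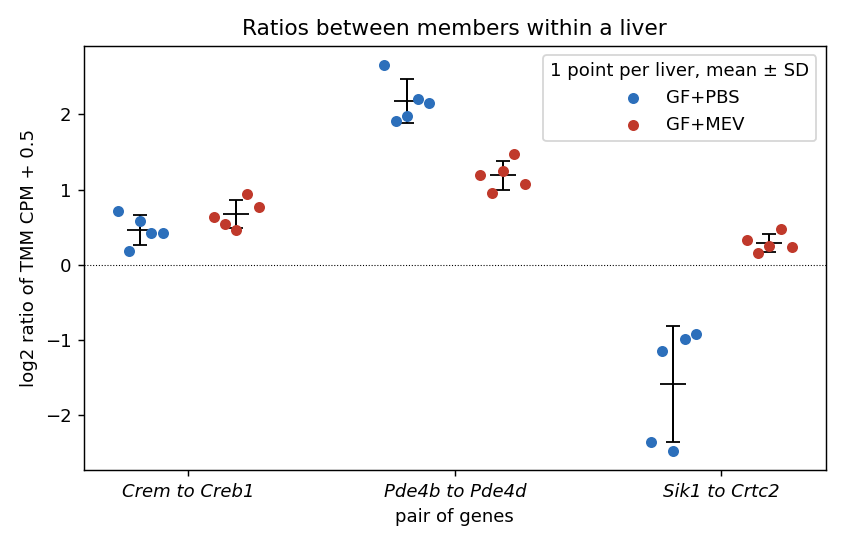
Log2 ratio of Crem to Creb1, Pde4b to Pde4d and Sik1 to Crtc2 in each liver, with a point per liver and lines at the group mean and 1 SD to either side. The Pde4b to Pde4d ratio is lower and the Sik1 to Crtc2 ratio higher in all 5 GF+MEV livers than in any GF+PBS liver, while the Crem to Creb1 points overlap.

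Levels between genes were compared as RPKM, the TMM-scaled CPM divided by the merged exon length in kilobases. In GF+PBS the order was *Creb3l3* (125 RPKM), *Prkar1a* (34.9), *Crtc2* (10.7), *Sik1* (3.09), *Pde4b* (2.54), *Crem* (2.315), *Ppargc1a* (1.34), *Nr4a1* (0.773), *Creb1* (0.712) and *Pde4d* (0.465). The first 3 were clear of each other and of the rest. Below them *Sik1*, at 1.44 to 4.47 RPKM over livers, overlapped *Pde4b*, *Crem* and *Ppargc1a*, and *Pde4b* and *Crem* overlapped each other. *Nr4a1*, at 0.554 to 0.993 RPKM, overlapped *Creb1*, *Ppargc1a* (0.876 to 1.97 RPKM) and, narrowly, *Pde4d*. In GF+MEV livers *Sik1* stood at 11.6 RPKM, level with *Crtc2* at 11.8 RPKM and within its spread. By their means, *Ppargc1a* at 3.10 RPKM and *Nr4a1* at 2.63 RPKM were then above *Pde4b*, which stood at 1.60 RPKM. Over livers *Nr4a1*, at 1.28 to 5.20 RPKM, overlapped *Pde4b*, at 1.12 to 2.18 RPKM. These ranks rest on the exon length used. With the longest transcript in its place, the GF+PBS order below *Crtc2* began with *Pde4b* (6.24 RPKM) and *Crem* (4.66 RPKM), ahead of *Sik1* (3.51 RPKM). In GF+MEV that length put *Pde4b* (3.93 RPKM) above *Nr4a1* (3.61 RPKM) and *Ppargc1a* (3.16 RPKM), and *Sik1* (13.15 RPKM) below *Crtc2* (16.2 RPKM).

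Of the relatives of the 10 genes, 13 of 18 listed could be tested, and 2 rose, with none lower and a median log2 fold change of 0.03. The shares among all tested genes were 4.12% higher and 3.52% lower. *Sik3*, another salt-inducible kinase, went from 59.1 ± 3.57 to 74.4 ± 7.14 CPM (SD, n = 5) without overlap between groups, or by 0.33 on the log2 scale (edgeR adjusted p = 0.0105). Its call was lost against GF+PBS livers 2, 4 and 5 (edgeR adjusted p = 0.0550), with alike livers summed (edgeR adjusted p = 0.0508) and with library totals as the scaling (edgeR adjusted p = 0.0838). *Ppargc1b*, which encodes PGC-1β, went from 7.97 ± 2.24 to 12.5 ± 2.58 CPM (SD, n = 5), or by 0.66 on the log2 scale (edgeR adjusted p = 0.0352). That call was lost when GF+MEV liver 2, 3 or 5 or GF+PBS liver 1, 2, 3 or 4 was left out (edgeR adjusted p = 0.0616 to 0.0985). It held in 11 of 21 alternative settings and was weakest against GF+PBS livers 2, 4 and 5 (edgeR adjusted p = 0.169). The 4 most abundant that did not pass had log2 differences near 0, namely the PKA subunit gene *Prkar2a* (0.03), *Creb3* (0.03), *Pde4c* (-0.05) and the CREB relative *Atf1* (0.0035).

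Upstream of the 10 genes stand receptors, G proteins, adenylyl cyclases, PKA catalytic subunits, its inhibitors and anchors, and the EPAC proteins. Of 32 listed, 22 were tested, 2 rose and none fell, against 4.12% higher and 3.52% lower among all tested genes. The median log2 fold change of the list was -0.0068. *Rapgef4*, which encodes the cAMP-activated exchange factor EPAC2, rose from 136 ± 26.6 to 251 ± 42.1 CPM (SD, n = 5) without overlap (log2 fold change 0.88, edgeR adjusted p = 0.000604). *Akap11*, a PKA anchor, went from 31.7 ± 4.51 to 39.7 ± 2.82 CPM (SD, n = 5), or by 0.33 on the log2 scale (edgeR adjusted p = 0.0389). Its call was lost without GF+MEV liver 1, 3, 4 or 5 or GF+PBS liver 1, 2, 3 or 4 (edgeR adjusted p = 0.0524 to 0.103). The call held in 10 of 21 alternative settings and was weakest against GF+PBS livers 2, 4 and 5 (edgeR adjusted p = 0.162). The glucagon receptor gene *Gcgr* stood at 388 CPM in GF+MEV and 401 CPM in GF+PBS (log2 difference -0.05, 95% interval -0.16 to 0.07, edgeR adjusted p = 0.674). The anchor gene *Akap1* (0.07) and the inhibitory G protein genes *Gnai2* (-0.01) and *Gnai3* (-0.06) did not pass either.

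Of the phosphodiesterases outside the PDE4 subfamily, 7 of 12 listed were tested and 0 passed (0 at an unadjusted edgeR p under 0.05, and 0 by DESeq2 or limma-voom). Their median log2 fold change was -0.05, with *Pde3b*, the insulin-stimulated form, at 0.09, *Pde8a* at 0.02, *Pde7a* at -0.05 and *Pde7b* at -0.13. Among coactivators, kinases and phosphatases that act on CREB or CRTC, all 19 were tested, 2 rose and none fell, with a median of 0.04. For both lists the shares among all tested genes were 4.12% higher and 3.52% lower. *Crebbp*, which encodes the CREB-binding acetyltransferase CBP, rose from 19.1 ± 2.80 to 25.4 ± 1.94 CPM (SD, n = 5; log2 fold change 0.41, edgeR adjusted p = 0.0211) but missed the threshold without GF+PBS liver 3 (edgeR adjusted p = 0.0524), against GF+PBS livers 2, 4 and 5 (edgeR adjusted p = 0.0718) and with library totals (edgeR adjusted p = 0.0614). *Ppp3ca*, a catalytic subunit of calcineurin, which dephosphorylates CRTC2, went from 33.4 ± 1.58 to 38.7 ± 1.05 CPM (SD, n = 5; log2 fold change 0.21, edgeR adjusted p = 0.0335). Its call was lost without GF+MEV liver 1, 2, 4 or 5 or GF+PBS liver 1, 2, 3 or 4 (edgeR adjusted p = 0.0527 to 0.0871). The call held in 7 of 21 alternative settings and was weakest with library totals (edgeR adjusted p = 0.218). *Stk11*, which encodes the SIK-activating kinase LKB1, differed by -0.05 and the phosphatase genes *Ppp2ca*, *Ppp1ca* and *Ppp1cb* by 0.15, -0.11 and 0.04, none past the threshold.

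Of the genes known as CREB targets in liver, 13 of 16 listed were tested. Of these, 8 rose, none fell, and the median log2 fold change was 1.58. The shares among all tested genes were 4.12% higher and 3.52% lower, and 3.94% separated the groups in the higher direction. This list was chosen with earlier results of these data known, so its counts describe it and do not test it. The gluconeogenic genes *Pck1* (1.71) and *G6pc* (2.28), the amino acid enzymes *Tat* (2.10) and *Sds* (1.58), the clock repressor *Per1* (1.69), the phosphatase gene *Dusp1* (2.10) and the transcription factor gene *Cebpb* (2.005) separated the groups. The urea cycle gene *Cps1* rose less (0.38, edgeR adjusted p = 0.0414) and lost its call without GF+MEV liver 1, 3, 4 or 5 or GF+PBS liver 1, 2, 3 or 4 (edgeR adjusted p = 0.0533 to 0.105). Its call held in 8 of 21 alternative settings and was weakest against GF+PBS livers 2, 4 and 5 (edgeR adjusted p = 0.206). The most abundant of the 5 others were *Junb* (0.08), *Irs2* (0.73, edgeR adjusted p = 0.0539), *Id1* (-0.77, edgeR adjusted p = 0.0549) and *Egr1* (-0.18). Of their exon bases, 20.7% of those of *Cebpb* (with *Tmem189*) and 21.3% of those of *Sds* (with *Plbd2*) are shared with the other strand, which the library kit does not tell apart. Several of these genes answer to glucocorticoids, insulin or growth factors as well, so the list is not specific to CREB.

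The partners and targets of PGC-1α were tested in full, 20 of 20, and 4 rose, none fell, with a median log2 fold change of 0.03. Here too the shares among all tested genes were 4.12% higher and 3.52% lower. *Lpin1*, which encodes a phosphatidate phosphatase and PGC-1α partner, rose from 64.8 ± 16.2 to 520 ± 142.5 CPM (SD, n = 5; log2 fold change 3.005, edgeR adjusted p = 3.54e-07). *Alas1*, the first enzyme of haem synthesis, rose by 1.51 (edgeR adjusted p = 0.0113), and the genes of the partners HNF4A and FOXO1 rose by 0.45 and 0.79. The abundant mitochondrial genes *Atp5b* (-0.04), *Cpt1a* (0.32) and *Acadm* (0.02) did not pass the test. Of the CREBH targets 11 of 12 were tested, none rose and 2 fell, beside the same shares, with a median of 0.04. *Hamp*, which encodes the iron hormone hepcidin, fell from 697 ± 57.1 to 512.5 ± 117 CPM (SD, n = 5; log2 fold change -0.44, edgeR adjusted p = 0.0365). *Apoc2* was near 1 to 2 CPM (-0.92, edgeR adjusted p = 0.0341), and 79.5% of its exon bases are shared with a readthrough model on the same strand, so its count is uncertain. *Hamp* lost its call without GF+MEV liver 1, 2, 3 or 5 or GF+PBS liver 1, 2, 3 or 4 (edgeR adjusted p = 0.0524 to 0.0900), and *Apoc2* without GF+MEV liver 1, 2 or 4 or GF+PBS liver 1, 2 or 3 (edgeR adjusted p = 0.0558 to 0.0868). *Hamp* held its call in 10 of 21 alternative settings and *Apoc2* in 13 of 21. *Fads2*, *Apoa5*, *Fads1* and *Bdh1* lay between -0.14 and 0.09.

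**Figure D4:**
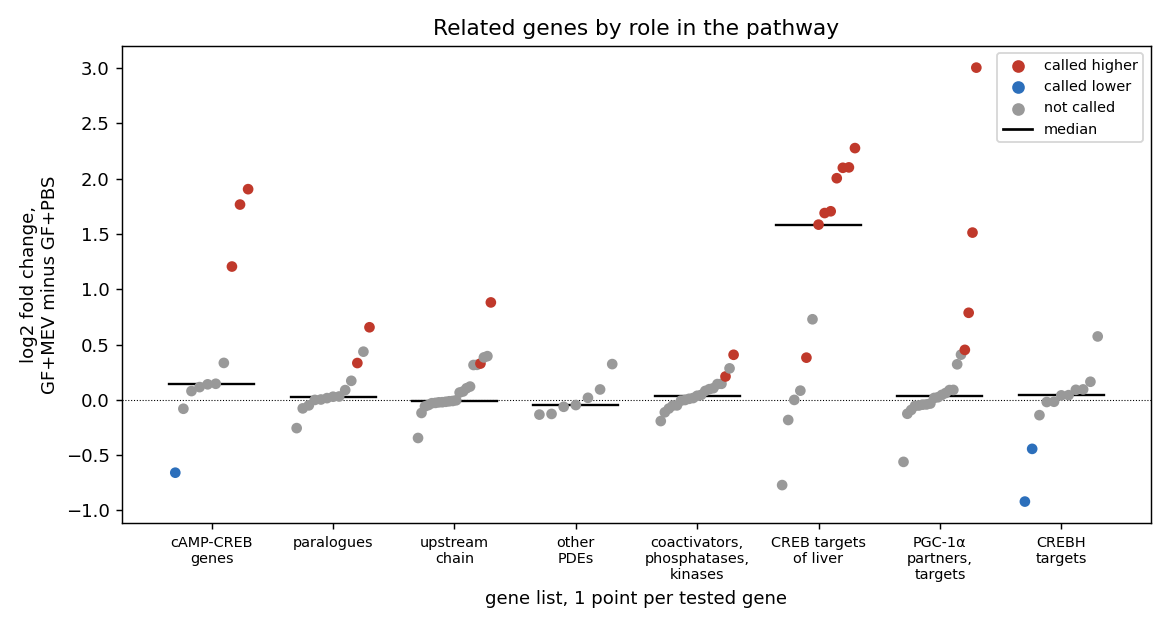
Log2 fold change of every tested gene in the 10-gene list and in each list of related genes, with red points for genes that passed the edgeR test as higher, blue for lower, grey for neither, and a bar at the list's median. The medians of the related lists lie between -0.05 and 0.04 except for the CREB targets at 1.58. All lists were chosen with earlier results of these data known, so the medians are a description and no test.

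For each of the 4 genes that passed, the genes whose profile over the 10 livers was most alike were found by the root mean square difference of log2 CPM centred on the gene's mean, among 11824 genes. Nearest to *Sik1* were *Per1* (difference 0.21), *Alas1* (0.33) and *Pck1* (0.33). Like *Sik1*, *Per1* was lowest in GF+PBS livers 1 and 3. Nearest to *Ppargc1a* were the cationic amino acid transporter gene *Slc7a2*, the transcription factor gene *Maff* and the lipin gene *Lpin2*, each at 0.20. *Nr4a1* had no such close neighbour, with *Dusp1* and *Txnip* at 0.50 and *Gja4* at 0.52. *Pde4b* was closest to *Cracr2b* (0.13), which fell from 2.05 to 1.27 CPM (edgeR adjusted p = 0.0450), followed by the endothelial gene *Ecscr* and *Gm20559* (both 0.19).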

How the data were processed

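RNA was extracted from whole liver, and libraries were made with the NEBNext Ultra RNA kit. The authors demultiplexed reads with bcl2fastq 2.17 and aligned them to GRCm38 with STAR 2.7.3a, per the submitters' processing notes, and counted them per gene with HTSeq. They deposited these as raw counts. A further 5 columns matched no described sample and were left out. Genes with at least 20 counts over the 10 libraries, 12147 of 12148, were tested with edgeR 4.0.16 in R 4.3.3 (TMM scaling, quasi-likelihood fit on group, Benjamini-Hochberg adjustment, threshold 0.05). Listed genes that could not be tested, such as *Fos*, *Fosb* and *Nr4a3*, had no entry under the listed symbol in the deposited counts. Standard errors and 95% intervals were derived from the quasi-likelihood F statistic and its degrees of freedom. Ratios used log2(CPM + 0.5). RPKM used merged exon lengths of GENCODE, which also gave symbols and positions.

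The members and lists of related genes were chosen with earlier results of these data known. Besides all members, the text names each list's genes that passed the test and up to 4 abundant ones that did not (a single gene of these is not reported here), and the 3 genes most alike to each member that passed, with a mean of at least 1 CPM. Replicates were separate mice. On simulated counts of this comparison over 12147 genes, edgeR recovered 180 of 200 genes changed by 1 on the log2 scale, with 9 false calls. The simulated libraries were drawn independently, without alike livers or a liver that stood apart. Its false calls therefore do not give the rate in these data. Alternatives were DESeq2 1.42.0, limma-voom (limma 3.58.1), other scalings and filters, a replicate block, each liver left out, sums of alike GF+PBS livers, and subsets of them chosen after the values were seen.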

Additional observations from a re-analysis of the deposited data

Results flagged for a closer look

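Over GF+MEV and GF+PBS, 28 groups of 5 values were examined for a liver far from the rest. Such a liver was found in 2, where chance at 1 in 20 would give 1.4 for any liver in any group. In both it was GF+MEV replicate 2. Its *Prkar1a* level was 145.9 CPM, against 159.3 to 164.7 CPM in the 4 other GF+MEV livers. Its TMM factor was 0.8902, against 0.9775 to 1.009. Without this liver the log2 difference of *Prkar1a* was 0.11 (edgeR adjusted p = 0.266).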

How the results depend on the processing

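*Sik1*, *Ppargc1a* and *Nr4a1* passed the test under all 21 alternatives, with log2 fold changes of 1.49 to 2.36, 0.95 to 1.66 and 1.37 to 2.04. *Pde4b* passed in 18 of 21 (-0.79 to -0.56). It missed the threshold against GF+PBS livers 1, 2 and 3 (-0.64, edgeR adjusted p = 0.0590) or 2, 4 and 5 (-0.61, edgeR adjusted p = 0.0574), controls chosen after seeing the data, and with alike GF+PBS livers summed (-0.62, edgeR adjusted p = 0.0714), which left 0 members lower. The 6 other members passed in 0 of 21, and none of the 10 reversed past the threshold.

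Over all genes 928 passed, 561 with alike livers summed, 1201 by DESeq2 and 696 to 926 with a liver left out. Higher genes were 53.9% of the calls, 41.2% with upper-quartile scaling and 32.5% with library totals, where the median log2 fold change was -0.078. Relatives called higher were 0 with livers 2, 4 and 5, with summed livers and with library totals. Upstream genes called higher were 4 with livers 1, 2 and 3 and with the replicate block, and 1 with livers 2, 4 and 5, library totals or upper-quartile scaling. Coactivators and phosphatases called higher were 0 with livers 2, 4 and 5 and library totals, and 1 with livers 1, 2 and 3, summed livers, the replicate block or upper-quartile scaling. CREB targets called lower were 1, *Id1*, with library totals, limma-voom, the replicate block or upper-quartile scaling. CREBH targets called lower were 1 with livers 1, 2 and 3, and 0 with livers 2, 4 and 5 or summed livers.

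With single livers left out, 1 to 2 relatives, 1 to 5 upstream genes, 0 to 2 coactivators and phosphatases and 7 to 9 CREB targets were higher, 0 to 1 CREB targets were lower, and 0 to 1 CREBH targets were higher and 0 to 2 lower. The *Crem* to *Creb1* difference was 0.14 to 0.27 (0.33 against GF+PBS livers 2, 4 and 5, exact permutation p = 0.0357), and 3 members higher and 1 lower held throughout. The cause of these shifts was not tested. Same-numbered livers correlated by -0.188 to 0.166, and numbers 1 and 5 correlated best with their own. With so few pairs this cannot decide whether the replicate numbers pair the livers. A replicate block left 792 genes and moved *Ppargc1a* to 1.26, *Sik1* to 1.999, *Nr4a1* to 1.62 and *Pde4b* to -0.69, all past the threshold. Without GF+MEV liver 1, the highest in *Nr4a1*, its log2 fold change was 1.37.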
